A study of Homo sapiens with 18 samples.

Results

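The mitochondrial carrier family (the SLC25A genes) and the uncoupling proteins UCP1, UCP2 and UCP3 were examined in melanoma cells with and without CRISPR targeting of ARID2, whose protein is a subunit specific to PBAF, a SWI/SNF chromatin remodeller. The members were all genes with a symbol made of SLC25A and a number, or UCP1 to UCP3, which gave 51 of the 56629 genes in each count table. The set was chosen by name and selected on the level of UCP2, which was lower in the KO lines of both cell lines, so the KO contrast of UCP2 is given below as a description without a test. Polyadenylated RNA was sequenced from the metastatic melanoma cell lines SKmel147 (NRASQ61R) and 501mel (BRAFV600E), grown in the same serum-containing medium. SKmel147 had 5 lines. Par had no construct, NT carried Lenti-Cas9 and a PLKO sgRNA by stable infection, and KO1.4, KO1.5 and KO3.20 carried the same kind of construct and are labelled as ARID2 KO. 501mel had 4 lines, of which Par had no construct and NTC, KO1.8 and KO5.2 carried the vector Lenti-CRISPR V2 with Cas9 and an sgRNA, the last 2 as ARID2 KO. Each line had 2 libraries (R1 and R2), which gave 10 libraries for SKmel147 and 8 for 501mel. NT and NTC, whose names are not explained in the labels, are called controls here together with Par. The labels do not tell clones from pools, or R1 and R2 as separate cultures. A p-value here thus reflects only how far libraries spread, and that spread may be technical.

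Mitochondrial carriers sit in the inner mitochondrial membrane and move nucleotides, phosphate, amino acids, carboxylates and cofactors between the matrix and the intermembrane space. The adenine nucleotide carriers exchange ADP for ATP and, with the phosphate carrier, feed ATP synthase. UCP1 is the proton-leak protein of brown fat, whereas UCP2, despite its name, is known as an exporter of C4 metabolites and is expressed in many tissues and tumours. In melanoma, mitochondrial metabolism is tied to the differentiation state of the cells through MITF and its target PPARGC1A. All values here are RNA levels, and neither protein nor transport was measured.

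RNA of the targeted gene ARID2 fell in KO lines of each cell line. Levels are CPM, read counts scaled to equal library size. ARID2 had 62.3 to 72.8 CPM in the SKmel147 controls and 39.8 to 57.0 in KO, which edgeR's quasi-likelihood test called (log2 fold change -0.43 ± 0.08 SE, adjusted p 0.0039). KO1.4 on its own was not called (-0.25 ± 0.11, adjusted p 0.23). In 501mel it stood at 40.9 to 43.2 CPM in controls and at 19.8 to 31.9 CPM in KO libraries (-0.73 ± 0.05, adjusted p 3.7e-08). Both cell lines expressed SOX10, the lineage factor of melanocytes, at 146 CPM or more in every library. Their states differed, since the pigment genes PMEL, TYR and DCT were near 0 in SKmel147, at up to 1.35, 0.589 and 0.189 CPM, while 501mel had PMEL at 2478 to 3072 CPM and the lineage factor MITF at 773 to 1047 CPM. Of 10 markers of blood, endothelial, epithelial and liver cells, KRT14 was highest, and it rose in the SKmel147 KO lines, from 0.559 to 0.972 CPM to 1.57 to 2.55 (1.38 ± 0.19, adjusted p 4.2e-04). The 10 together summed to 0.731 to 1.26 CPM in the SKmel147 controls and 1.72 to 2.93 in KO, and to 0.644 to 1.18 and 0.578 to 1.06 in 501mel. ALB and CD3E were at 0 in every SKmel147 library. Of the melanoma markers, 0 of 7 tested rose and 1 fell in SKmel147, and 2 of 10 rose and 3 fell in 501mel. Among all genes 8.07% rose and 9.6% fell in SKmel147, and 24.7% rose and 26.5% fell in 501mel. AXL fell by 0.37 in SKmel147 with overlapping groups. In 501mel TYRP1 fell by 0.99 and DCT rose by 0.41, both with overlapping groups, and S100B fell by 0.62. Their part in the carrier results was not tested. Libraries held 21266522 to 35670140 counts in SKmel147 and 16749707 to 20606855 in 501mel, of which the carriers took 0.184 to 0.211% and 0.254 to 0.311%.

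A small group of carriers made up most of the family's RNA. Levels were compared between genes as CPM per kb of the principal transcript. In the SKmel147 controls the mean was 209 CPM per kb for SLC25A5 (the adenine nucleotide carrier ANT2), 196 for SLC25A3 (the phosphate carrier) and 162 for SLC25A6 (ANT3). The ranges of these 3 genes over the 4 control libraries overlapped, so their order was not resolved. The next gene, SLC25A46, an outer membrane protein of mitochondrial dynamics, was at 43.1 CPM per kb, with a range of 36.2 to 50.6. In the 501mel controls SLC25A6 led at 308 CPM per kb (265 to 341), above SLC25A3 at 210.3 (201 to 225) and SLC25A5 at 195 (186 to 208), whose ranges overlapped. The fourth there was SLC25A13, the aspartate and glutamate carrier known as citrin, at 54.0 CPM per kb. SLC25A3, SLC25A5 and SLC25A6 together held 58.5% of the family's level per kb in SKmel147 and 59.3% in 501mel. UCP2 stood far below them on this scale, at 8.83 CPM per kb (7.92 to 9.97) in the SKmel147 controls and 6.5 (4.60 to 7.78) in the 501mel controls.

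Some carriers were barely or not detected. SLC25A31 (ANT4, a testis form) had 0 counts in all 18 libraries. UCP1 had 0 counts in SKmel147 and 1 count in 501mel. SLC25A2, SLC25A41 and SLC25A47 had 12, 2 and 1 counts over the 10 SKmel147 libraries and 0, 3 and 2 counts over the 8 501mel libraries. A count of 0 allows a level of up to 0.0106 CPM over all SKmel147 libraries and 0.0195 CPM over all 501mel libraries, for counting error only. After the low-count filter 45 members were tested in SKmel147 and 43 in 501mel. Of 40 named pseudogene copies of 14 members, SLC25A51P1 alone exceeded 1 CPM, at 1.07 in a 501mel library. SLC25A48 was left out in SKmel147 alone, and SLC25A18, SLC25A21 and SLC25A43 in 501mel alone.

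UCP2 was lower in all 5 KO lines. In SKmel147 its level was 19.4 and 16.7 CPM in Par and 17.5 and 21.1 in NT, against 7.51 and 7.97 in KO1.4, 5.12 and 5.83 in KO1.5, and 9.29 and 7.97 in KO3.20. Every KO library was below every control library. The fitted difference was -1.38 ± 0.10 (SE) on the log2 scale, a level 2.61-fold lower. In 501mel its level was 9.72 and 12.9 CPM in Par and 15.9 and 16.4 in NTC, against 5.05 and 7.49 in KO1.8 and 7.09 and 7.19 in KO5.2. Here too the KO libraries lay below the controls without overlap, and the fitted difference was -1.01 ± 0.12, a level 2.02-fold lower. In bulk RNA, less RNA per cell and fewer expressing cells cannot be told apart. As a description of the values that chose the gene, 349 of 18361 genes tested in SKmel147 (1.9%) and 834 of 16230 in 501mel (5.14%) had a lower fold change than UCP2.

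Contrasts of UCP2 other than KO against controls were tested, although they draw on the same libraries as its choice. Within SKmel147, UCP2 did not differ detectably between NT and Par (0.09 on the log2 scale, adjusted p 0.75) or between KO3.20 and the mean of KO1.4 and KO1.5 (0.41, adjusted p 0.17). In 501mel the control lines did differ, with NTC above Par by 0.52 (adjusted p 0.031), while KO5.2 and KO1.8 were not told apart (0.18, adjusted p 0.45). The size of the 501mel difference therefore rested on the choice of control, at -0.75 against Par alone and -1.27 against NTC alone. In the controls UCP2 was higher in SKmel147 than in 501mel, at 17.0 to 21.5 against 9.46 to 16.1 CPM on the common scale, a difference of 0.53 ± 0.12 (adjusted p 7.4e-04), which was not called with lines as replicates (0.49, adjusted p 0.12). The neighbouring genes in RefSeq order were looked up after the UCP2 values were seen. Of COA4, PAAF1, DNAJB13, UCP3, C2CD3 and PPME1, C2CD3 was called in SKmel147, where it was higher by 0.26 (adjusted p 0.033), and none was called in 501mel.

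**Figure D1:**
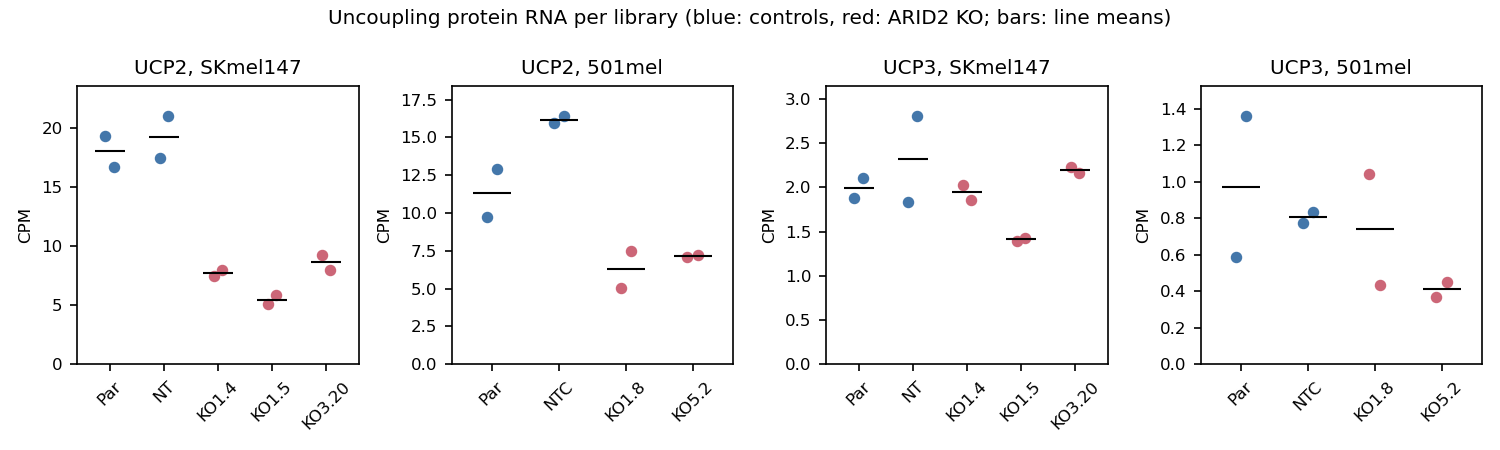
CPM (linear axis from 0) of UCP2 and UCP3 in each library, with lines of SKmel147 or 501mel on the horizontal axis, controls in blue, ARID2 KO in red and a bar at each line's mean of 2 libraries. UCP2 stood at 16.7 to 21.1 CPM in the SKmel147 controls and at 5.12 to 9.29 in the KO lines, while UCP3 of the KO libraries overlapped the controls in both cell lines.

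The promoter of UCP2 is shown because UCP2 is the gene on which the set was selected. That of SLC25A42, a coenzyme A carrier, is shown because SLC25A42 was called higher in both cell lines. RefSeq (GRCh38.p14, a later build than that of the counts) lists 2 starts for UCP2. The 250 bases before each start are given 5′ to 3′ on the gene's strand, with capitals for the CCAAT box (CCAAT, or ATTGG on the other strand) and the GC box (GGGCGG or CCGCCC).
UCP2, upstream start, chr11:73983203-73983452, minus strand: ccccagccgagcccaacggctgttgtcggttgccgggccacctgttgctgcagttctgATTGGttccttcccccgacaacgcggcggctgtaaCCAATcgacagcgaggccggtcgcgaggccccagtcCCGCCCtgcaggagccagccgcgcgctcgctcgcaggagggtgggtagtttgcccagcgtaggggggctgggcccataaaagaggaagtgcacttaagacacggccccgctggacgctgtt
UCP2, downstream start, chr11:73982844-73983093, minus strand: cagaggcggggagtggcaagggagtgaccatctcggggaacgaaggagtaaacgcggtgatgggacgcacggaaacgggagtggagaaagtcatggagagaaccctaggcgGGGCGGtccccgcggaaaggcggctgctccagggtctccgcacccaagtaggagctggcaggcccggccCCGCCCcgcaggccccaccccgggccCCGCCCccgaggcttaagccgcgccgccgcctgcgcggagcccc
SLC25A42, chr19:19063744-19063993, plus strand: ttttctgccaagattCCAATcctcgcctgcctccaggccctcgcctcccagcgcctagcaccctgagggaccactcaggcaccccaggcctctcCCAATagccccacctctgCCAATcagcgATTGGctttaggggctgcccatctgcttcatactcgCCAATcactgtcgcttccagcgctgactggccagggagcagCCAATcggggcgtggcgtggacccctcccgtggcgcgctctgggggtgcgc

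Both strands were searched in these windows and in all 34943 RefSeq windows of the same length. The upstream UCP2 window held 2 CCAAT boxes and 1 GC box, and the downstream window held 3 GC boxes and no CCAAT box. SLC25A42 held 6 CCAAT boxes and no GC box. A CCAAT box was present in 32.0% of all windows and a GC box in 42.5%. At least 2 CCAAT boxes were found in 9.54% of windows, at least 3 GC boxes in 13.83%, and at least 6 CCAAT boxes in 0.11%. None of the 3 windows held the E-box CACGTG, the E-box CATGTG or the AP-1 letters TGANTCA, which were in 6.3, 9.4 and 6.6% of all windows. These matches describe letters, and binding was not measured here.

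Of the other uncoupling proteins, UCP1 was too low to be tested, and UCP3 was lower in KO in both cell lines but was not called. UCP3 had 7 to 23 counts per 501mel library, so its test there was limited by depth. UCP3, the muscle form, was at 1.88 and 2.11 CPM in SKmel147 Par, 1.83 and 2.81 in NT, and at 1.39 to 2.23 with a median of 1.94 in the KO libraries (-0.24 ± 0.17, adjusted p 0.38). In 501mel UCP3 was at 0.585, 1.36, 0.773 and 0.834 CPM in the controls and at 1.04, 0.435, 0.368 and 0.452 in the KO libraries (-0.69 ± 0.36, adjusted p 0.12). The groups overlapped in both cell lines. Of the related carriers, SLC25A14 (BMCP1) rose in 501mel. It went from 3.75, 3.90, 3.45 and 3.48 CPM in the controls to 4.73 and 5.17 in KO1.8 and 7.72 and 6.99 in KO5.2. The groups did not overlap, and the difference was 0.73 ± 0.11 (adjusted p 7.3e-05). SLC25A30 rose there by 0.15 ± 0.06 (adjusted p 0.038) and SLC25A27 (UCP4) fell by 0.52 (SE 0.14, adjusted p 0.0051). Leaving out single libraries ended the SLC25A30 call in 4 of 8 cases (R2 of Par and NTC, R1 of KO1.8 and KO5.2), and it was at -0.025 against Par alone. Without KO5.2 SLC25A27 was at -0.11. None of SLC25A14, SLC25A27 and SLC25A30 was called in SKmel147, where their differences were -0.09, -0.04 and 0.11.

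In SKmel147 the members were called about as often as genes in general. Of 45 members tested, 2 were higher and 6 lower in KO, which is 17.8%, beside 17.7% of all 18361 genes (8.07% higher and 9.6% lower). UCP2, on which the set was selected, is 1 of the 6, and nothing is read from its call. The members' median log2 fold change was -0.05, and that of all genes was -0.01. The median size of change was 0.15 for members and 0.20 for all genes. SLC25A20 and SLC25A42 were higher, and SLC25A3, SLC25A4, SLC25A5, SLC25A29 and SLC25A53 were lower beside UCP2. Apart from UCP2, only SLC25A4 was called with 1 sign in every KO line, and it was lower, beside 1.8% of all genes. No member was called higher, beside 1.58%. When counts were summed so that lines served as replicates, edgeR's quasi-likelihood test called none of the 45 (6 at an unadjusted p under 0.05). Apart from the UCP2 on which the set was chosen, limma voom with lines as blocks called SLC25A4, which was lower. A correction of each library for GC content and transcript length raised the calls to 6 higher and 10 lower. The share of all genes called in these alternative fits is not given here, so their counts are not read as a result about the members.

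SLC25A4 (ANT1, the heart and muscle form of the adenine nucleotide carrier) fell in all 3 SKmel147 KO lines. It was at 24.7 and 22.7 CPM in Par and 28.5 and 24.9 in NT, against a range of 17.0 to 19.4 with a median of 18.4 over the 6 KO libraries. All KO libraries were below all controls, as was true of 4.59% of all genes. The difference was -0.46 ± 0.08 (adjusted p 0.0025), and the single lines gave -0.41, -0.51 and -0.46. It stayed past the threshold with each of the 10 libraries left out. In 501mel SLC25A4 was at 82.7, 78.7, 72.1 and 71.2 CPM in the controls and at 80.7, 84.1, 80.6 and 80.3 in the KO libraries (0.10 ± 0.04, adjusted p 0.055), with overlapping groups. The difference between the cell lines was itself called, at -0.55 ± 0.09 (adjusted p 2.8e-04).

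The more abundant forms of the carrier went the other way in 501mel. SLC25A6 rose there from 703 and 680.5 CPM in Par and 614 and 546 in NTC to 1208 and 1155 in KO1.8 and 863 and 819.6 in KO5.2. The groups did not overlap, and the rise was 0.65 ± 0.04 (adjusted p 1.9e-08), larger in KO1.8 (0.90) than in KO5.2 (0.41), with a difference of -0.49 between these lines (adjusted p 1.7e-05). In SKmel147 SLC25A6 was at 324, 397, 274 and 342 CPM in the controls and at 267 to 338 with a median of 325 in the KO libraries (-0.09 ± 0.09, adjusted p 0.55). The effects of the cell lines differed by -0.74 ± 0.11 (adjusted p 1.7e-04). ASMTL, a gene near SLC25A6 in RefSeq order that was looked at after its values were seen, rose in 501mel too, by 0.62 (adjusted p 9.3e-04). SLC25A6 lies in the region shared by the X and Y chromosomes, so reads from its copies there depend on how the authors treated multiple hits.

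SLC25A5 rose in 501mel in KO5.2 but not detectably in KO1.8. Its levels were 254, 264, 241 and 237 CPM in the controls, 248 and 265 in KO1.8, and 397 and 406 in KO5.2. KO1.8 lay within or just above the control range and both KO5.2 libraries lay above it. The KO mean was higher by 0.37 ± 0.04 (adjusted p 2.0e-06), and KO5.2 exceeded KO1.8 by 0.65 (adjusted p 4.4e-07). In SKmel147 SLC25A5 was at 228 and 234 CPM in Par, 312 and 292 in NT, and 219 to 245 with a median of 229 in the KO libraries. Its fall there (-0.20 ± 0.06, adjusted p 0.042) was -0.01 against Par alone, and the call ended when any single library other than NT R2 was left out. NT exceeded Par by 0.38 (adjusted p 0.029). The effects of the cell lines differed by -0.56 ± 0.07 (adjusted p 3.4e-05).

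**Figure D2:**
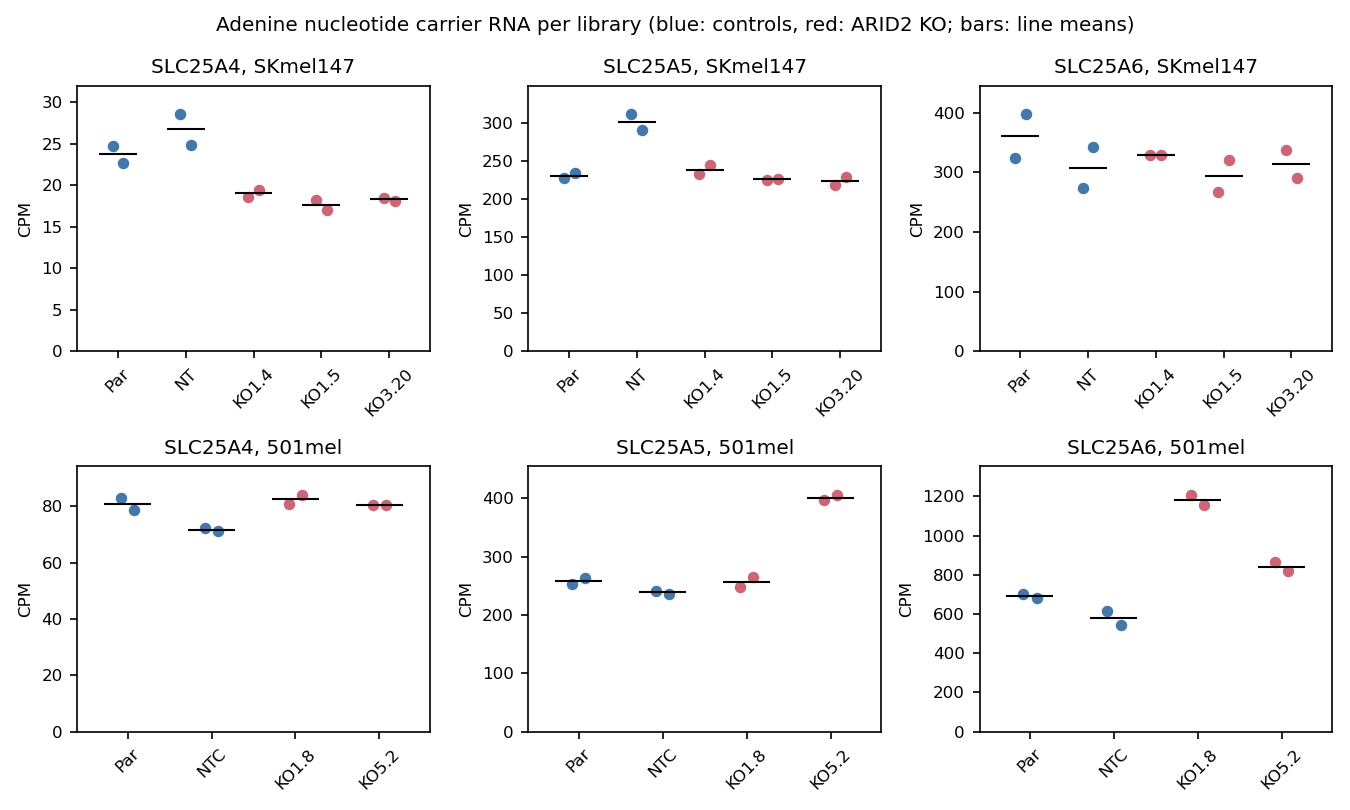
CPM (linear axes from 0) of the adenine nucleotide carriers SLC25A4, SLC25A5 and SLC25A6 in each library, with SKmel147 in the upper row and 501mel in the lower row, controls in blue, ARID2 KO in red and a bar at each line's mean. In SKmel147 SLC25A4 was at 17.0 to 19.4 CPM in the KO libraries and at 22.7 to 28.5 in the controls, and in 501mel SLC25A6 reached 1208 CPM in KO1.8.

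SLC25A3, the phosphate carrier, was at 361, 354, 307 and 297 CPM in the SKmel147 controls and at 269 to 291 with a median of 275 in the KO libraries. All KO libraries were lower, and the difference was -0.25 ± 0.06 (adjusted p 0.013), but against NT alone it was -0.13 (adjusted p 0.33). The call also ended without line KO1.4 or KO3.20, or without the R1 library of KO3.20. In 501mel it was not called (-0.11 ± 0.05, adjusted p 0.060). The sum of all members stood apart from the controls on opposite sides. In SKmel147 it was 2026 to 2092 CPM in the controls and 1839 to 1890 in the KO libraries. In 501mel it was 2500 to 2690 CPM in the controls and 2869 to 3091 in the KO libraries. Of that 501mel sum, SLC25A3, SLC25A5 and SLC25A6 held 1141 to 1322 CPM in controls and 1550 to 1773 in KO, while the sum of the remaining members was 1354 to 1368 CPM in controls and 1296 to 1319 in KO. These sums are descriptions and were not tested. The calcium-regulated ATP-magnesium and phosphate carriers were not called in SKmel147. In 501mel SLC25A23 rose from 83.7, 77.5, 74.3 and 66.2 CPM to 86.2, 86.0, 91.9 and 87.0 (0.22 ± 0.05, adjusted p 0.0013), but against Par alone it was not called. SLC25A24 rose by 0.26 and SLC25A25 fell by 0.36. Without KO5.2 the former was not called (0.12) and the latter was at 0.15.

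In 501mel 27 of 43 members tested were called, 12 higher and 15 lower, which is 62.8% beside 51.3% of all 16230 genes (24.7% higher and 26.5% lower). The member count includes UCP2, on which the set was selected, and nothing is read from its call. The median log2 fold change was -0.03 for members and -0.01 for all genes, and the median size of change was 0.27 and 0.23. With 1 sign in both KO lines 7 members were called higher and 6 lower, UCP2 among the latter, beside 12.3% and 11.7% of all genes. The higher ones were SLC25A6, SLC25A10, SLC25A13, SLC25A14, SLC25A23, SLC25A37 and SLC25A42, and the lower ones SLC25A1, SLC25A22, SLC25A36, SLC25A45, SLC25A46 and UCP2. In these genes the KO and control libraries did not overlap, as was true of 13.2% of all genes above and 13.9% below. With lines as replicates, edgeR's quasi-likelihood test called none of the 43 members (9 at an unadjusted p under 0.05), and limma voom with lines as blocks called SLC25A6 and SLC25A10 higher and SLC25A36 and SLC25A45 lower. Without KO5.2, 9 members were called higher and 9 lower. Nothing is read about the members from these alternative counts, as the share of all genes called in the same fits is not given here.

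**Figure D3:**
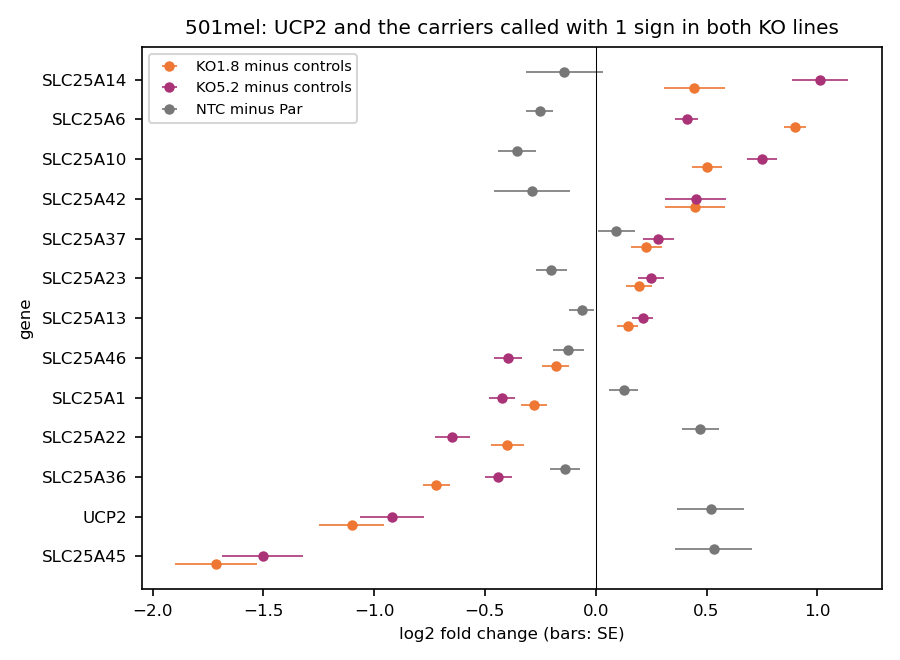
Log2 fold change (horizontal axis) of UCP2 and the 12 carriers called with 1 sign in both 501mel KO lines, with orange points for KO1.8 against controls, purple for KO5.2 against controls, grey for NTC against Par, and bars for 1 SE. SLC25A45 was lowest in both lines, at -1.71 and -1.50, and SLC25A6 and SLC25A14 differed most between the KO lines among those that rose.

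Of the carboxylate carriers of the mitochondrial shuttles, none of 8 tested was called in SKmel147, where 17.7% of all genes were called. In 501mel 2 of 6 tested rose and 2 fell, beside 24.7% and 26.5% of all genes. SLC25A10, the dicarboxylate carrier, rose from 22.7, 25, 18.8 and 18.4 CPM in the controls to 31.1 and 28.6 in KO1.8 and 35.5 and 35.2 in KO5.2. The rise was 0.63 ± 0.06 (adjusted p 5.4e-07), and the control lines differed by -0.36. SLC25A13 rose from 170.3, 176, 165 and 166 CPM to 179, 195, 194 and 198 (0.18 ± 0.04, adjusted p 0.0018), a small change with no overlap. SLC25A1, the citrate carrier that exports carbon for fatty acid synthesis, fell from 79.5, 77.0, 84.6 and 86.2 CPM to 70.0, 64.9, 64.4 and 57.6 (-0.35 ± 0.05, adjusted p 2.4e-05). SLC25A22, a glutamate carrier, fell from 22.0, 24.4, 33.2 and 31.2 CPM to 21.1, 20.4, 16.6 and 18.3 (-0.52 ± 0.06, adjusted p 6.8e-06). Its NTC libraries stood above Par by 0.47 (adjusted p 0.0016). For SLC25A1 in SKmel147 the large difference was between the controls themselves, at 72.8 and 102 CPM in Par and 39.7 and 47.3 in NT (-1.01, adjusted p 0.0082). The KO libraries, at 46.4 to 63.9 CPM, lay below Par and overlapped NT.

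Of 10 nucleotide and cofactor carriers, 1 rose and 5 fell in 501mel, where 24.7% of all genes rose and 26.5% fell. SLC25A36, a pyrimidine nucleotide carrier, fell from 180.1, 180.1, 158 and 169 CPM to 98.4 and 110.0 in KO1.8 and 119.9 and 133 in KO5.2. The groups did not overlap, and the difference was -0.58 ± 0.05 (adjusted p 2.0e-07), and it was the nucleotide carrier whose fall was also called by the limma voom fit. The related SLC25A33 fell by 0.20, from 52.4, 53.6, 62.6 and 59.9 CPM to 54.5, 52.3, 45.3 and 47.4, with overlapping groups, and without KO5.2 the difference was -0.09. SLC25A17 (the peroxisomal carrier) and SLC25A51 (NAD+) fell by 0.20 and 0.29. Without KO5.2 these were at -0.08 and 0.10, and leaving out a single library ended their calls in 2 and 4 of 8 cases.

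SLC25A42 was the only carrier called higher in both cell lines. In 501mel it was at 6.44, 5.32, 5.11 and 4.56 CPM in the controls and at 6.92, 7.59, 8.09 and 6.49 in the KO libraries, all above the controls (0.45 ± 0.11, adjusted p 0.0041). In SKmel147 it was low, at 1.09 and 0.903 CPM in Par, 0.475 and 0.576 in NT, and 0.843 to 1.73 with a median of 1.22 in the KO libraries. The groups overlapped, and the difference of 0.78 ± 0.23 (adjusted p 0.039) was no longer called when any single library other than KO1.4 R2 was left out. Against Par alone it was 0.31 in each cell line, with an adjusted p of 0.48 in SKmel147 and 0.098 in 501mel. Of the genes tested in both cell lines, 3.22% were called higher in both, beside 1 of 42 members. Lower in both were 4.09% of genes and 1 member, UCP2, on which the set was selected, so nothing is read from that count.

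Among the amino acid and carnitine carriers, SLC25A29, SLC25A20 and SLC25A15 differed in KO effect between the cell lines. For SLC25A15 the difference was 0.30, and leaving out 1 library ended that call in 14 of 18 cases. SLC25A29, a carrier of basic amino acids, was at 8.33, 10.4, 7.64 and 9.72 CPM in the SKmel147 controls and at 3.91 to 9.26 with a median of 5.16 in the KO libraries (-0.72 ± 0.17, adjusted p 0.014). KO1.5 was lowest, 1 KO1.4 library lay within the control range, and the call ended without KO1.5 (-0.49). In 501mel it was at 8.25, 7.69, 6.42 and 7.75 CPM in the controls, 15.1 and 13.5 in KO1.8 and 8.78 and 7.74 in KO5.2. Its rise of 0.53 ± 0.09 (adjusted p 2.9e-04) lay in KO1.8, and without that line the difference was 0.13. The effects differed by -1.24 ± 0.22 (adjusted p 6.6e-04). SLC25A20, which brings acylcarnitines into the matrix for fatty acid oxidation, rose in SKmel147 from 8.70, 7.14, 6.21 and 7.46 CPM to 9.17 to 12.1 with a median of 9.99. The KO libraries were all above the controls, as were those of 4.0% of all genes, and the rise was 0.49 ± 0.11 (adjusted p 0.0088), but without KO1.5 (0.40) or against Par alone (0.38) it was not called. In 501mel it was not called (-0.21 ± 0.10, adjusted p 0.097), and the effects differed by 0.71 ± 0.15 (adjusted p 0.0023). The carriers of glycine (SLC25A38), glutathione (SLC25A39 and SLC25A40) and branched-chain amino acids (SLC25A44) were called in neither cell line.

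Mitoferrin-1 (SLC25A37), an iron carrier known from erythroid cells, rose in 501mel from 36.4, 39.0, 39.8 and 40.6 CPM to 49.6, 41.8, 46.3 and 48.4 (0.26 ± 0.06, adjusted p 0.0018). Its SKmel147 levels were 110.3 to 138 CPM in the controls and 86.1 to 128 with a median of 114 in the KO libraries (-0.19 ± 0.08, adjusted p 0.11). Mitoferrin-2 (SLC25A28) was called in neither.

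SLC25A45 had the lowest fold change of the 43 members tested in 501mel. It went from 5.27 and 4.32 CPM in Par and 6.30 and 7.50 in NTC to 1.98 and 1.55 in KO1.8 and 2.00 and 2.06 in KO5.2. The difference was -1.61 ± 0.15 (adjusted p 4.9e-07), and the groups were far apart. Its SKmel147 levels were 0.842, 1.16, 0.645 and 1.4 CPM in the controls, 1.07 to 1.94 in KO1.4 and KO1.5 and 1.38 and 0.930 in KO3.20 (0.45 ± 0.29, adjusted p 0.33). The effects of the cell lines differed by 2.07 ± 0.34 (adjusted p 3.5e-04). ZNRD2 (listed as SSSCA1), a gene near it in RefSeq order that was looked at after its values were seen, was at -0.29 in 501mel.

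Other carriers whose substrate is not settled here also moved in 501mel. SLC25A46 fell from 62.0, 62.0, 55.1 and 58.6 CPM to 50.6, 54.2, 42.5 and 47.7 (-0.29 ± 0.05, adjusted p 2.3e-04). SLC25A48 was at 2.17 and 2.54 CPM in Par, 13.2 and 12.7 in NTC, 4.42 and 4.01 in KO1.8, and 2.15 and 1.16 in KO5.2. Its called fall (-1.07 ± 0.16) rested on NTC, since NTC exceeded Par by 2.46 (adjusted p 1.1e-06) and the difference against Par alone was 0.16. SLC25A34 and SLC25A35 fell by 0.97 and 0.41 with overlapping groups. SLC25A34 was at 0.937, 0.591, 1.31 and 1.28 CPM in the controls and at 0.832, 0.338, 0.631 and 0.251 in KO, and SLC25A35 was below the controls in KO1.8 alone (3.80 and 3.09 CPM). Neither was called against Par alone or by DESeq2, and leaving out 1 library ended the calls in 5 of 8 cases for SLC25A34 (every library but Par R2, KO1.8 R1 and KO5.2 R1) and without Par R2 for SLC25A35. SLC25A53 was at 1.05, 0.414, 1.37 and 0.687 CPM in the 501mel controls and at 1.30, 1.93, 1.47 and 1.61 in the KO libraries (0.88 ± 0.29, adjusted p 0.020). Its SKmel147 levels were 8.22, 5.68, 9.50 and 7.67 CPM in the controls and 4.68 to 7.0 with a median of 5.15 in the KO libraries (-0.51 ± 0.15, adjusted p 0.035). The groups overlapped in both, and leaving out 1 library ended the call in 4 of 8 cases (R2 of every 501mel line) and in 6 of 10 (R1 of every SKmel147 line and KO1.4 R2). The adjacent ZCCHC18 was lower in both cell lines (-0.63 and -2.89), and how the authors' counting assigned reads between neighbours was not tested.

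Of the 42 members tested in both cell lines, 13 were called in neither KO contrast. They were UCP3, the glycine, glutathione and branched-chain amino acid carriers named above, SLC25A11, SLC25A12, SLC25A15, SLC25A16, SLC25A26, SLC25A28, SLC25A32 and SLC25A52. Their differences ran from -0.24 to 0.21 in SKmel147 and from -0.69 to 0.08 in 501mel. Across these 42 members, 20 had a difference of the same sign (47.6%), beside 54.7% of 14681 genes. Pearson's r between the cell lines was -0.01 (Spearman's rho -0.06), beside 0.12 over all genes. This is a description across genes, which are not independent replicates. SLC25A5, SLC25A29 and SLC25A53 were called lower in SKmel147 and higher in 501mel, a pattern named after the values were seen and met by 1.91% of all genes. A direct test of the difference between the cell lines, fitted over 19518 genes (21.3% called, 11.3% higher and 9.99% lower), called 13 of these 42 members, 4 higher and 9 lower. That is 31.0%, beside 26.8% of the 14681 genes. With lines as replicates edgeR called none (7 at an unadjusted p under 0.05), and the voom fit called SLC25A4 and SLC25A45. Shares of all genes called in those fits are not given here.

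**Figure D4:**
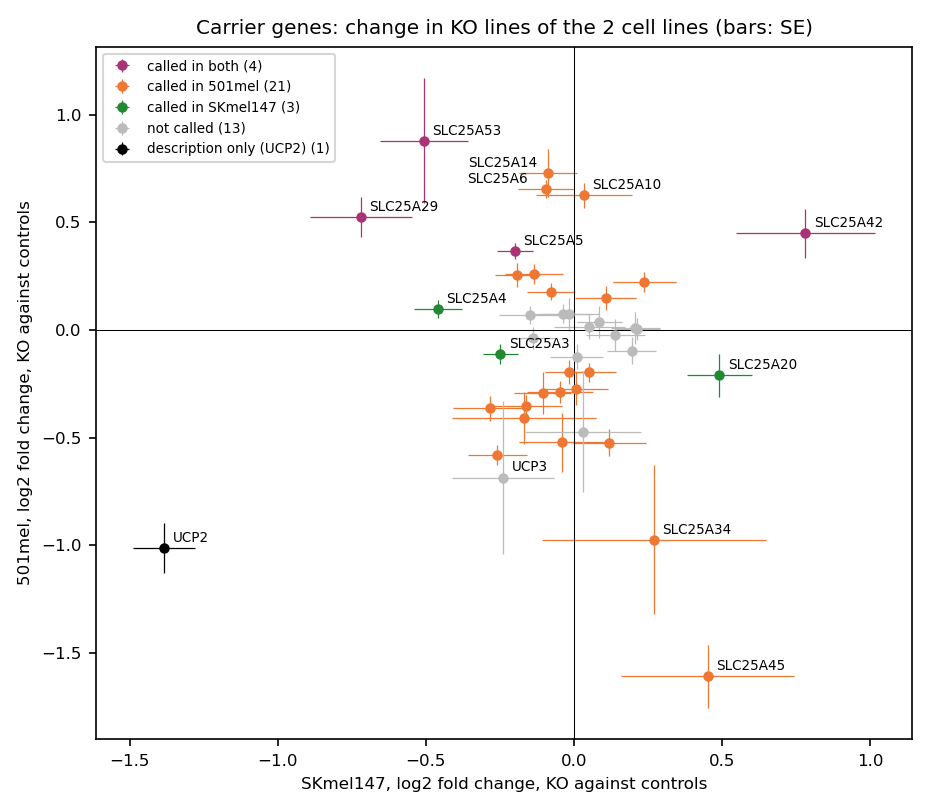
Log2 fold change of KO against controls in SKmel147 (horizontal axis) and 501mel (vertical axis) for the 42 members tested in both, with bars for 1 SE and colours for the calls. UCP2 stands alone at the lower left at -1.38 and -1.01, SLC25A42 at the upper right at 0.78 and 0.45, and SLC25A5, SLC25A29 and SLC25A53 lie at the upper left.

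Between the controls of the cell lines, members were called about as often as genes in general. Of 46 members that passed the low-count filter of the joint fit, 17 were higher in SKmel147 and 21 higher in 501mel. That is 82.6%, beside 80.7% of all genes (43.1% and 37.6%). SLC25A18, SLC25A21 and SLC25A43, called higher in SKmel147, were filtered out in the separate fit of 501mel. SLC25A48, called higher in 501mel, was filtered out in that of SKmel147. These members passed through the cell line where they are high, so nothing is read from their calls. The share of all genes includes such genes too, with 19518 tested jointly and 14681 in both separate fits. SLC25A43 had 17.8 to 22.4 CPM in the SKmel147 controls and 0 counts in every 501mel library, which is at least 465-fold higher in SKmel147, against a floor of 3 counts over the 501mel controls. Its neighbours PGRMC1 and SLC25A5 were expressed in the 501mel controls, at 25 to 29.4 and 237 to 264 CPM. SLC25A21, the oxoadipate carrier, was also at 0 in 501mel, at least 35.9-fold below SKmel147. SLC25A48 had 2 counts in all of SKmel147, and its control level in 501mel was 425-fold higher (95% counting interval 118 to 3509). That interval covers the counting error of the 2 counts only. It leaves out the spread of the 501mel control lines, at 2.11 and 2.47 CPM in Par and 12.8 and 12.5 in NTC. SLC25A14 and SLC25A37 were higher in SKmel147 by 1.95 ± 0.11 and 1.72 ± 0.08, at 12.7 to 14.8 against 3.34 to 3.79 CPM and 113 to 141 against 35.4 to 39.9 CPM. SLC25A13, SLC25A23 and SLC25A33 were higher in 501mel, with differences of -2.70 ± 0.07, -2.54 ± 0.09 and -2.02 ± 0.07. Their ranges were 21.3 to 29.6 against 159.6 to 171 CPM, 10.8 to 13.9 against 65.0 to 81.4 CPM, and 13.1 to 14.0 against 51.0 to 60.6 CPM. The adjusted p of these 5 carriers was 2.3e-11 or less, and their ranges did not overlap. SLC25A4 was higher in 501mel as well (-1.53 ± 0.07).

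**Figure D5:**
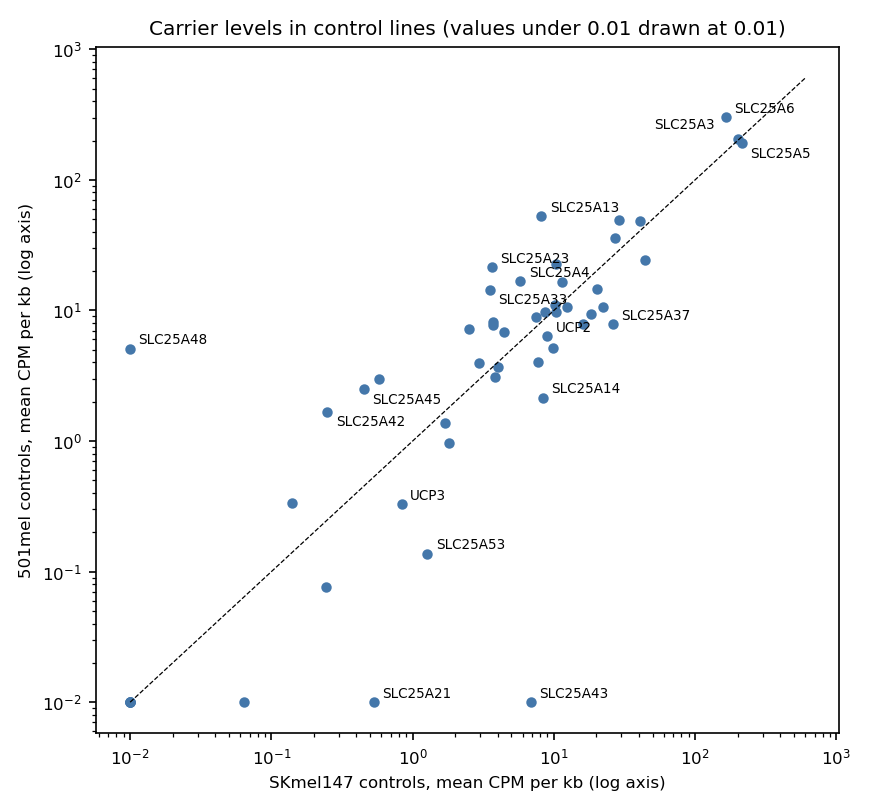
Mean CPM per kb in the 4 control libraries of SKmel147 (horizontal log axis) and of 501mel (vertical log axis) for all 51 members on the common scale, with a dashed line of equal level and values under 0.01 drawn at 0.01. SLC25A3, SLC25A5 and SLC25A6 stand at the upper end in both, and SLC25A43 and SLC25A21 lie at the lower edge with 0 counts in 501mel.

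Differences between lines of the same kind are set beside the KO differences. They rest on fewer libraries than the KO contrasts, so the counts of calls are unlike in power. In SKmel147 the members' median size of change was 0.23 for NT against Par, 0.12 for KO3.20 and 0.15 for KO. For all genes it was 0.28, 0.16 and 0.20. In 501mel it was 0.16 for NTC against Par, 0.27 for KO5.2 against KO1.8 and 0.27 for KO. For all genes there it was 0.16, 0.26 and 0.23. NT and Par of SKmel147 differed in 2 members higher (SLC25A5, SLC25A15) and 1 lower (SLC25A1), which is 6.67% beside 9.27% of all genes (3.82% higher and 5.45% lower). NTC and Par of 501mel differed in 7 higher and 4 lower, which is 25.6% beside 15.7% of all genes (6.77% higher and 8.93% lower). KO5.2 and KO1.8 differed in 8 higher and 16 lower, which is 55.8% beside 41.3% of all genes (20.6% higher and 20.7% lower). KO3.20 and the other SKmel147 KO lines differed in no member by edgeR (6 of 45 at an unadjusted p under 0.05) or by DESeq2, beside 3.79% of all genes (2.41% higher and 1.38% lower), and in 2 higher and 2 lower after the GC and length correction. Some 501mel differences went with those of their chromosome. In KO5.2 the median gene of chromosome 9 (over genes averaging log2 CPM 3 or more) was at -0.51, and its members SLC25A25 and SLC25A51 were at -0.87 and -0.68, whereas in KO1.8 the median was -0.03 and they were at 0.15 and 0.10. On chromosome X the KO median in 501mel was 0.16, with 0.21 in KO1.8 and 0.05 in KO5.2. All 4 members tested there (SLC25A5, SLC25A6, SLC25A14 and SLC25A53) were called higher, as were 40.6% of the 532 genes tested. SLC25A5 and SLC25A14 were higher in KO5.2 than in KO1.8, whereas SLC25A6 was higher in KO1.8. On chromosome 9 the members SLC25A25 and SLC25A51 were called lower, as were 57.2% of 526 genes. On chromosomes 5 and 22 the 2 members tested were called lower, beside 29.7% and 23.4% of genes there. On chromosome 19 the 2 members tested were called higher, beside 45.7%. Chromosome 11 holds UCP2, UCP3, SLC25A22 and SLC25A45. Of its 699 genes tested, 11.9% were called higher and 42.5% lower, and its median was -0.27 in KO1.8 and 0.04 in KO5.2. SLC25A22 and SLC25A45 were called lower and UCP3 was not called, and nothing is read from the call of UCP2. Other members went against their chromosome. SLC25A29 on chromosome 14 was called higher, where 6.9% of genes were higher and 56.4% lower. SLC25A13 on chromosome 7 was called higher, where 13.2% were higher and 36.4% lower. The part of copy number in these results was not tested.

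Of the import machinery that carries these proteins into the inner membrane, 1 of 15 tested rose and 3 fell in SKmel147, and 2 rose and 6 fell in 501mel. For these and the following lists, 8.07% of all genes rose and 9.6% fell in SKmel147, and 24.7% and 26.5% in 501mel. The receptors TOMM20 and TOMM22 fell in SKmel147, by 0.32 and 0.27 with overlapping groups, and AGK, a subunit of the TIM22 carrier translocase, rose by 0.33. In 501mel the import pore TOMM40 and the small TIM protein TIMM8A rose by 0.38 and 0.55, and TIMM9 fell by 0.32 with overlapping groups. Of 27 other mitochondrial membrane transporters, 1 rose and 1 fell in SKmel147 and 10 rose and 4 fell in 501mel. In SKmel147 TSPO fell by 0.55, although its KO libraries (6.97 to 10.2 CPM) lay within the control range (6.62 to 20.7), and SFXN4 rose by 0.34 with overlapping groups. The pyruvate carrier subunit MPC2, the calcium uniporter regulator MICU2 and the porin VDAC3 rose by 0.40, 0.41 and 0.34 in 501mel, the last with overlapping groups. The median was -0.10 in both cell lines for the import machinery, and -0.06 and 0.05 for the other transporters, beside -0.01 for all genes.

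Of the enzymes that supply or use carrier substrates, 4 of 27 rose and 4 fell in SKmel147, and 8 of 26 rose and 10 fell in 501mel, with list medians of 0.01 and -0.04. SHMT2, the mitochondrial serine hydroxymethyltransferase of one-carbon metabolism, was lower in both cell lines. Its SKmel147 controls had 139.6 to 203 CPM and its KO libraries 73.3 to 89.9 (-1.08 ± 0.09, adjusted p 9.3e-06), and in 501mel the controls had 295 to 349.6 CPM and the KO libraries 193 to 224 (-0.66 ± 0.05, adjusted p 7.7e-08). The groups did not overlap in either. MTHFD2 of the same pathway fell by 0.54 in SKmel147 with overlapping groups. CPT1A, an enzyme that makes acylcarnitines, rose by 0.58 in SKmel147, although its KO libraries (4.02 to 9.94 CPM) lay within the control range (1.39 to 12.1). In 501mel CPT1A fell by 1.20 and CPT1C fell by 1.59, without overlap. Among 11 regulators of mitochondrial genes, 2 rose and 1 fell in SKmel147, and 2 rose and 3 fell in 501mel. PPARA rose by 0.87 and PPARD fell by 0.40 in SKmel147, both with overlapping groups, and PPARA fell by 0.53 and PPARD rose by 0.48 in 501mel.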

How the data were processed

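The authors deposited raw read counts per gene symbol, in 1 table for each cell line with a column for each library. They used STAR 2.6.0 and featureCounts with GRCh37 and hg19, per the submitters' processing notes, and per the labels' protocols the library kit was directional. Not given in the sources used here are the annotation release and how strand and multiple hits were set, so carriers with near-identical copies and overlapping neighbours are uncertain. No column was left out.

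The analysis used edgeR 4.0.16 under R 4.3.3 (TMM, filterByExpr by line, 1 coefficient per line, quasi-likelihood test), separately per cell line, and jointly over 18 libraries for differences between cell lines. P-values were adjusted by Benjamini-Hochberg over all genes, and called means under 0.05. The KO contrast subtracts the average of the 2 control lines from that of the KO lines. CPM are TMM-scaled, and levels set side by side across cell lines use the joint scaling. The scripts were tested on simulated data. DESeq2 1.42.0 and limma 3.58.1 served as alternatives, with the others listed in the closing section. The count with the line as replicate and the voom fit were added for the difference between cell lines after the data were seen. Lengths and chromosomes came from GENCODE 29, which all 51 members matched, and promoters from RefSeq, for 43 members.

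Members and lists were chosen with earlier results of these data known. Values in every library are given for UCP2, UCP3, for up to 6 members per direction called with 1 sign in every KO line, for those called with 1 sign in both cell lines, for 3 per direction with the largest fold between the control groups (mean log2 CPM of at least 3), and for the 4 with the smallest p for the difference of the KO effect. Per list and cell line up to 3 genes are named by smallest p. Other members with values were named after their values were seen. Values of 1 member are not reported here.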

Additional observations from a re-analysis of the deposited data

Results flagged for a closer look

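The KO effect differed between SKmel147 and 501mel for 13 carriers by the interaction term of edgeR's joint fit, and each value here is the effect in SKmel147 minus that in 501mel on the log2 scale. The difference was negative for SLC25A5 (-0.56), SLC25A6 (-0.74), SLC25A4 (-0.55), SLC25A14 (-0.81), SLC25A29 (-1.24), SLC25A37 (-0.44), SLC25A53 (-1.38), SLC25A24 (-0.39) and SLC25A10 (-0.58). It was positive for SLC25A45 (2.07), SLC25A20 (0.71), SLC25A22 (0.65) and SLC25A15 (0.30). Leaving out 1 of the 18 libraries ended the call of SLC25A10 and SLC25A15 in 14 cases each and that of SLC25A24 in 12, and ended none of the calls of the other carriers. SLC25A43, SLC25A21 and SLC25A48 had at most 2 counts in 1 of the cell lines, so their fitted differences carry no information and are left out.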

How the results depend on the processing

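As a description of the values that chose it, UCP2 stayed lower in KO under all alternatives. Its values ran from -1.51 to -1.18 for SKmel147 and from -1.27 to -0.75 for 501mel. The count of members called, UCP2 included, moved as follows, given as higher and then lower. The share of all genes called under each alternative is not given here, so these counts are not read as a result about the members. With the line as replicate it was 0 and 0 in either cell line and 0 and 0 for the difference between them, and with voom and a line block 0 and 2 in SKmel147, 2 and 2 in 501mel and 1 and 1 for the difference. Between the controls both fits gave 14 and 18, against 17 and 21. The GC and length correction gave 6 and 10 for KO in SKmel147, 1 and 4 in every KO line there, 4 and 3 for NT against Par and 2 and 2 for KO3.20. DESeq2's Wald test gave 1 higher in SKmel147 KO, 3 and 2 for NTC against Par, and 5 and 10 for KO5.2 against KO1.8. Without the filter 1 was higher in NT than Par and 1 lower in every SKmel147 KO line. Without line KO1.4 or KO3.20 SKmel147 had 1 and 3, without KO1.5 it had 1 higher, and without KO5.2 501mel had 9 lower. Against Par alone 3 were higher in both 501mel KO lines.

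Leaving out 1 library gave 1 to 2 higher and 3 to 7 lower for KO in SKmel147, 10 to 13 and 12 to 18 in 501mel, 0 to 3 and 0 to 2 for NT against Par, 2 to 7 and 0 to 4 for NTC against Par, 5 to 8 and 10 to 16 for KO5.2 against KO1.8, 0 to 0 for KO3.20, 16 to 18 and 19 to 22 between controls, 3 to 5 and 7 to 10 for the difference, 0 to 0 and 1 to 2 in every SKmel147 KO line, and 3 to 8 and 5 to 7 in both 501mel KO lines.

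Signs turned for SLC25A25 (0.15) and SLC25A51 (0.10) without KO5.2, for SLC25A30 (-0.025) and SLC25A48 (0.16) against Par alone, and between controls after the GC and length correction for SLC25A1 (0.35), SLC25A10 (0.55), SLC25A22 (0.45) and SLC25A28 (0.11). The cause was not tested.

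A replicate block left 1 member lower in every SKmel147 KO line, and SLC25A5 lost its call there. The correlation of R1 minus R2 between lines was -0.55 to 0.63 over 10 pairs in SKmel147 and 0.00020 to 0.25 over 6 pairs in 501mel, so the numbers were not taken as pairs. Carriers under 1 CPM were limited by depth.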
